A study of Homo sapiens with 12 samples.

Results

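The CDC-like kinase (CLK) family has 4 genes, CLK1, CLK2, CLK3 and CLK4, and all of them were taken by gene symbol, as 4 of the 43481 genes in the deposited tables. Their 64 annotated transcripts, of 181808 matched to GENCODE release 29, comprise 15 of CLK1, 7 of CLK2, 27 of CLK3 and 15 of CLK4. All 4 genes and 39 of the 64 transcripts passed the filter on low counts. The cells were RPE-1, an established human retinal pigment epithelium line, and polyadenylated RNA was sequenced with a stranded kit in 12 libraries, 3 in each of 4 groups. In all groups the cells had first been kept for 24 h in medium that lacked both glucose and fetal calf serum (FCS). In 3 groups, called stimulated below, 10% FCS and 5 g/l glucose were then given back for 4 h, in the presence of 100 µM dimethyl amiloride (DMA, an inhibitor of sodium/proton exchangers), of 10 µM C646 (an inhibitor of the acetyltransferases p300 and CBP) or of the DMSO solvent alone. The starved group received none of these. The labels do not say whether the libraries of a group came from separate cultures, so p-values measure only the spread between these libraries, which may be technical.

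CLK kinases are nuclear enzymes that phosphorylate serine, threonine and tyrosine. Their best known substrates are the SR proteins, splicing factors with a domain rich in arginine and serine, which CLKs release from nuclear speckles so that they can act on pre-mRNA. The CLK genes are themselves alternatively spliced: skipping of exon 4 shifts the reading frame ahead of the kinase domain, and the introns on both sides of exon 4 can be kept. For CLK1, work in human and mouse cells has described polyadenylated transcripts with these introns that stay in the nucleus and can be spliced later.

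The exon 4 sequences of the 4 genes are shown because the transcripts that differ most between groups differ from the coding transcripts in this exon or its flanking introns. Each line gives exon 4 in capitals with 30 bases of the flanking introns 3 and 4 in lower case, read 5′ to 3′ on the gene's strand from the transcripts of GENCODE 29 (GRCh38), at chr2:200860095-200860245 (minus strand) for CLK1, chr1:155268678-155268822 (minus) for CLK2, chr15:74622090-74622246 (plus) for CLK3 and chr5:178617314-178617464 (minus) for CLK4.
CLK1: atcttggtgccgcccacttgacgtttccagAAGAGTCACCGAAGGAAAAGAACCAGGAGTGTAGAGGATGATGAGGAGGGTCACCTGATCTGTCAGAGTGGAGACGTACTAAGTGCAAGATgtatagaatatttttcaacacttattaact
CLK2: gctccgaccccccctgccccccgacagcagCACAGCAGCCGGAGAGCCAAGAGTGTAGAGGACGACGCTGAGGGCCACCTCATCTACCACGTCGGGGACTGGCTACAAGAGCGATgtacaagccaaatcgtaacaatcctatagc
CLK3: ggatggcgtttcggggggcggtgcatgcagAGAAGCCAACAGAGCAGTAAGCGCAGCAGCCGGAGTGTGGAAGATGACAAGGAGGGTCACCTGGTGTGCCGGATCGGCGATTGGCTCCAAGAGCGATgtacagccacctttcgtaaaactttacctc
CLK4: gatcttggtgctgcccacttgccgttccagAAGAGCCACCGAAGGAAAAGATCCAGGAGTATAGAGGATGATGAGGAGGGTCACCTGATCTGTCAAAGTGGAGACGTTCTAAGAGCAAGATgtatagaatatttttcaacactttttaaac
Intron 3 ends in AG and intron 4 begins with GT in all 4 genes. Exon 4 lies in the coding sequence of all 4 genes and is 91 bases long in CLK1 and CLK4, 85 in CLK2 and 97 in CLK3, so that each length leaves a remainder of 1 base when divided by 3. The CLK1 and CLK4 exons were identical at 85 of 91 bases (93.4%). Intron 3 measures 1022 bases in CLK1, 695 in CLK2, 1894 in CLK3 and 1121 in CLK4. Intron 4 measures 378, 348, 277 and 395 bases in the same order of genes.

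The libraries held 14910516 to 28968510 expected counts each, so that 3 counts, the limit for a transcript listed at 0, corresponded to 0.104 to 0.201 CPM (counts scaled to a common library total). KRT8 (209 to 553 CPM) and KRT18 (349 to 680 CPM), keratins of simple epithelia, were abundant in all libraries. So were CDH2 (268 to 359 CPM) and VIM (3956 to 6687 CPM), which was the highest of the markers checked and stood above both keratins. Of 6 genes of pigment epithelium, the transcription factors MITF (17.6 to 55.8 CPM) and OTX2 (6.83 to 22.4 CPM) were expressed and BEST1 was low (0.632 to 3.90 CPM), while RPE65, RLBP1 and TYR, which mark differentiated function, were at or near 0 (at most 0.169, 0.295 and 0.0422 CPM). So was PTPRC, a leukocyte marker (at most 0.633 CPM), while SNAP25, another marker checked, was low (1.69 to 4.97 CPM). The first principal component of all genes (31.1% of the variance) separated the starved from the stimulated libraries. The second (14.6%) set the libraries numbered 3 apart, and the third (13.4%) set solvent library 1 apart. CPM values here are relative to other genes (TMM scaling). As an alternative, libraries were scaled to the counts of 92 spike-in control sequences, whose added amount the labels do not give. The median difference of all genes was then 0.81 (log2) in DMA over starved cells, 0.73 in C646 over starved, 0.60 in solvent over starved, 0.23 in DMA over solvent, 0.13 in C646 over solvent and 0.10 in DMA over C646.

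CLK1 was lower in C646 and in solvent cells than in starved cells. Its level was 66.1, 90.7 and 60.7 CPM in DMA cells, 53.1, 62.7 and 63.4 CPM in C646 cells, 53.1, 68.3 and 51.2 CPM in solvent cells, against 75.9, 103.5 and 123 CPM in starved cells. Every C646 and solvent library lay below every starved library, while DMA library 2 lay above starved library 1. By edgeR's quasi-likelihood test with Benjamini-Hochberg adjustment over 15263 genes, CLK1 fell by 0.81 (log2, SE 0.19, adjusted p = 0.00857) in solvent over starved cells and by 0.75 (SE 0.19, adjusted p = 0.0126) in C646 over starved cells. The DMA over starved difference was -0.47 (SE 0.19, adjusted p = 0.0820). With spike-in scaling no such call was made: the CLK1 difference was 0.31 (adjusted p = 0.444) for DMA, -0.06 (adjusted p = 0.900) for C646 and -0.22 (adjusted p = 0.647) for solvent over starved cells. The C646 call also ended without starved library 3 (-0.59, adjusted p = 0.0513) or without C646 library 1 (-0.68, adjusted p = 0.0543). These bulk values cannot tell fewer cells with the transcript from less transcript per cell.

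CLK4, the closest relative of CLK1, measured 13.7, 19.4 and 10.7 CPM in DMA cells, 15.7, 15.2 and 15.3 CPM in C646 cells, 14.8, 16.0 and 8.88 CPM in solvent cells, against 18.5, 21.3 and 23.0 CPM in starved cells. The C646 and solvent libraries all lay below the starved ones, and DMA library 2 overlapped with them. No difference passed the test: it was -0.52 (SE 0.24, adjusted p = 0.122) in DMA, -0.44 (SE 0.23, adjusted p = 0.193) in C646 and -0.66 (SE 0.24, adjusted p = 0.0570) in solvent over starved cells. The solvent over starved value was called by DESeq2 (-0.67, adjusted p = 0.0300). It was also called by edgeR when one library was left out: solvent 2 (-0.82, adjusted p = 0.0492), DMA 2 (-0.66, adjusted p = 0.0407) or DMA 3 (-0.67, adjusted p = 0.0420). With spike-in scaling the CLK4 difference was 0.28 in DMA and 0.25 in C646 over starved cells, so that the direction turned.

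CLK2 and CLK3 showed a wide spread within groups, with library 3 the lowest within each stimulated group. CLK2 measured 38.5, 33.7 and 22.1 CPM in DMA cells, 33.7, 40.9 and 21.9 CPM in C646 cells, 41.6, 50.05 and 23.2 CPM in solvent cells, against 39.1, 48.9 and 35.9 CPM in starved cells. All 4 groups overlapped. CLK3 measured 58.4, 52.7 and 33.3 CPM in DMA cells, 43.9, 42.5 and 26.1 CPM in C646 cells, 32.2, 41.7 and 28.8 CPM in solvent cells, against 44.5, 60.3 and 46.5 CPM in starved cells. The C646 and solvent libraries lay below the starved ones for CLK3, and the DMA libraries overlapped with them. The differences from starved cells ranged from -0.11 to -0.40 for CLK2 and from -0.07 to -0.56 for CLK3 (adjusted p from 0.109 to 0.864). In solvent over starved cells edgeR called CLK3 when only the compared groups were fitted (-0.57, adjusted p = 0.0416). Calls with the replicate number as a block are given below. With spike-in scaling all differences of CLK2 and CLK3 from starved cells were positive (0.35 to 0.50 for CLK2, 0.06 to 0.69 for CLK3).

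**Figure D1:**
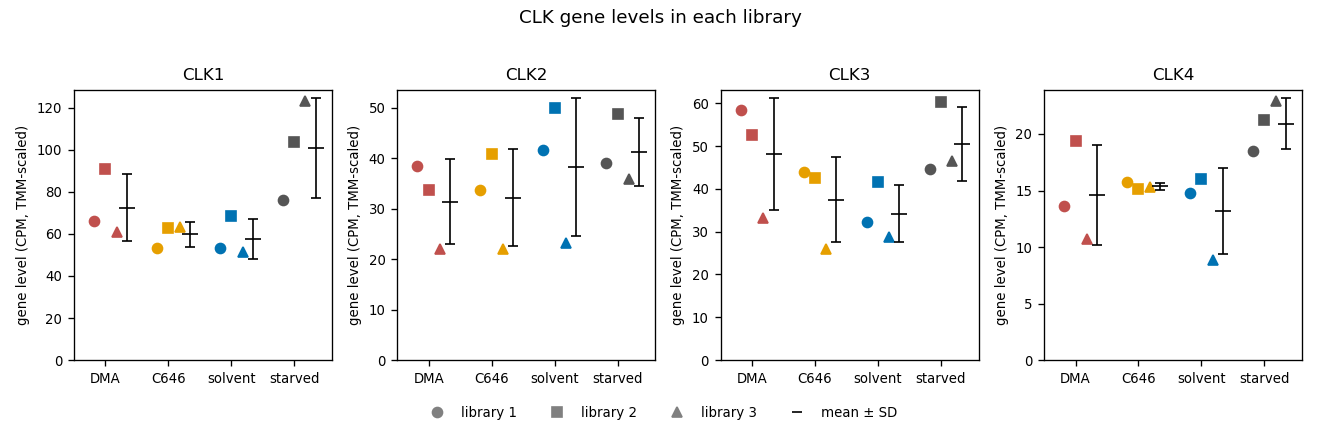
Gene level (CPM, TMM-scaled) of each CLK gene in the 3 libraries of each group, with the mean and SD. The C646 and solvent libraries lie below all starved libraries for CLK1, CLK3 and CLK4, while DMA libraries overlap with the starved ones in every panel. How many of all genes separate in that way was not counted. With spike-in scaling the CLK1 difference was positive in DMA over starved cells and uncalled in the other groups. The CLK4 difference was then positive in DMA and C646 over starved cells, and the CLK2 and CLK3 differences from starved cells were all positive.

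Counted over the family, 1 of 4 genes passed the test in solvent over starved cells, beside 24.3% of all genes tested, and 1 of 4 in C646 over starved cells, beside 24.6%, so the members' shares were close to those of all genes. In the same order 3 and 1 of 4 had an unadjusted p under 0.05, beside 36.3% and 36.8% of all genes. The lack of overlap between libraries was read for the CLK genes only. How many of all genes separate in that way was not counted. For DMA over starved cells 0 of 4 passed edgeR's test, beside 26.9% of all genes. An unadjusted p under 0.05 was reached by 2 of 4, beside 39.0% of all genes, and DESeq2 called 0. Libraries with the same number deviated together in every pair of groups, least clearly for solvent and starved cells (r from 0.0957 to 0.330). With the replicate number as a block, 3 of 4 genes were called in DMA over starved cells, beside 38.7% of all genes: CLK1 fell by 0.47 (adjusted p = 0.0238), CLK2 by 0.42 (adjusted p = 0.0386) and CLK4 by 0.55 (adjusted p = 0.0464). The block likewise gave 3 of 4 in C646 over starved cells, beside 36.2% of all genes, CLK1, CLK2 (-0.40, adjusted p = 0.0498) and CLK3 (-0.46, adjusted p = 0.0326). In solvent over starved cells the block gave 3 of 4 as well, beside 18.0% of all genes called higher and 17.7% called lower. The median difference over the 4 genes was -0.44 in DMA, -0.44 in C646 and -0.61 in solvent over starved cells, beside medians of all genes of 0.00, 0.01 and 0.00.

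Neither inhibitor moved a CLK gene past the test against the solvent. In DMA over solvent cells 0 of 4 genes were called by edgeR, beside 1.75% of all genes, and in C646 over solvent cells 0 of 4, beside 1.21%. The count in DMA over C646 cells was 0 of 4, beside 2.89%. These shares moved with single libraries. In DMA over solvent cells the share was 0.0064% without DMA library 2, 0.761% without DMA library 3, 0.0511% and 0.192% without solvent library 1 and 2, and 0.905 to 1.97% without any other one. In C646 over solvent cells it ran from 0.153% (without solvent library 1) to 1.23%, and in DMA over C646 cells from 1.15% (without DMA library 3) to 2.67%. With the replicate block the shares were 10.2%, 7.86% and 9.81%. The count of CLK genes was 0 under each of these settings. None of the 4 had an unadjusted p under 0.05 in these 3 comparisons, beside 19.4%, 16.8% and 17.4% of all genes, and DESeq2 called 0 in each. The largest of these differences was CLK3 in DMA over solvent cells, 0.49 (SE 0.24, 95% interval -0.03 to 1.01, adjusted p = 0.282). It was followed by CLK3 in DMA over C646 cells, 0.36 (SE 0.24, adjusted p = 0.496), and CLK1 in DMA over solvent cells, 0.33 (SE 0.19, interval -0.08 to 0.74, adjusted p = 0.363). The CLK1 interval in C646 over solvent cells ran from -0.36 to 0.47. All comparisons share groups, and these values are set side by side only.

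Per transcript length, in the authors' TPM (the level of a transcript relative to all transcripts, corrected for length), CLK1 averaged 55.8 in DMA, 48.1 in C646, 44.4 in solvent and 70.8 in starved cells. CLK3 averaged 50.2, 39.9, 43.8 and 55.8 TPM in the same order of groups. Part of the CLK3 value came from a short transcript of few counts: CLK3-219 (327 bases, at most 1.92 CPM) ran from 0.149 to 16.6 TPM over the libraries. CLK2 averaged 26.0, 26.5, 31.9 and 34.2 TPM. CLK4 was the lowest of the 4 in every group, at 10.6, 10.1, 7.88 and 13.1 TPM.

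The transcript of CLK1 that differed most was CLK1-210, annotated as retained_intron, which keeps both introns beside exon 4 (11 exons, 3208 bases, chr2:200853081-200864691, minus strand). It measured 7.74, 16.0 and 9.84 CPM in DMA cells, 6.56, 10.1 and 11.2 CPM in C646 cells, 9.43, 10.8 and 6.98 CPM in solvent cells, against 26.9, 39.9 and 34.2 CPM in starved cells. All 9 stimulated libraries lay below all 3 starved libraries, and how many of all transcripts separate in this way was not counted. It fell by 1.59 (log2, SE 0.32, adjusted p = 0.0337) in DMA, by 1.86 (SE 0.32, adjusted p = 0.0206) in C646 and by 1.89 (SE 0.32, adjusted p = 0.0184) in solvent over starved cells, by edgeR's quasi-likelihood test over 59656 transcripts. With spike-in scaling, chosen for transcripts after seeing the data, the 3 differences were -0.80 (adjusted p = 0.415), -1.17 (adjusted p = 0.277) and -1.38 (adjusted p = 0.254), so the direction held and the calls ended. Among the 3178 runs of 31 bases in CLK1-210, 11 occur in no other CLK1 transcript, so its count rests on how the authors' quantification shared reads between transcripts. CLK1-201, CLK2-202, CLK3-201, CLK3-203 and CLK3-225, given below, have 0 such runs within their genes, and CLK4-201 has 2. The same limit therefore holds for these transcripts and for the ratios to coding transcripts.

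Single libraries also decided the calls of CLK1-210, although its direction held without any one of the 12. In solvent over starved cells the call ended without starved library 2 (-1.77, adjusted p = 0.0790) or 3 (-1.88, adjusted p = 0.0509), or without solvent library 1 (-1.95, adjusted p = 0.0702) or 3 (-1.74, adjusted p = 0.0732). In C646 over starved cells it ended without starved library 2 (-1.74, adjusted p = 0.0822) or 3 (-1.86, adjusted p = 0.0653), or without C646 library 1 (-1.68, adjusted p = 0.0924), 2 (-1.94, adjusted p = 0.0735) or 3 (-2.03, adjusted p = 0.0514). In DMA over starved cells it ended without starved library 1 (-1.74, adjusted p = 0.0648), 2 (-1.47, adjusted p = 0.119) or 3 (-1.59, adjusted p = 0.0955), DMA library 1 (-1.39, adjusted p = 0.107) or 3 (-1.53, adjusted p = 0.129), solvent library 2 (-1.60, adjusted p = 0.0528) or C646 library 2 (-1.60, adjusted p = 0.0584). The last 2 libraries belong to neither group of this comparison and enter it only through the shared fit.

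CLK1-204, a nonsense_mediated_decay transcript that lacks exon 4, measured 26.5, 28.0 and 23.6 CPM in DMA cells, 13.4, 11.6 and 19.5 CPM in C646 cells, 14.1, 10.7 and 17.7 CPM in solvent cells, against 18.2, 24.3 and 54.1 CPM in starved cells. Every DMA library lay above every C646 and every solvent library, and the solvent libraries all lay below the starved ones, of which library 3 stood far above the others. The share of all transcripts that separate in these ways was not counted. The differences did not pass the test: 0.88 (SE 0.38, adjusted p = 0.540) in DMA over solvent, 0.81 (SE 0.38, adjusted p = 0.817) in DMA over C646, -0.31 (adjusted p = 0.835) in DMA over starved and -1.11 (adjusted p = 0.230) in C646 over starved cells. In solvent over starved cells it was -1.18 (adjusted p = 0.185) by edgeR and -1.23 (adjusted p = 0.0394), a call, by DESeq2. With spike-in scaling the DMA over starved value was 0.39.

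CLK1-201, a protein_coding transcript with 13 exons, measured 17.6, 34.6 and 19.0 CPM in DMA cells, 21.2, 24.7 and 23.3 CPM in C646 cells, 16.2, 22.9 and 23.1 CPM in solvent cells, against 18.9, 15.4 and 20.8 CPM in starved cells. The C646 libraries lay above the starved ones and the other groups overlapped with them. Its difference was 0.37 in DMA, 0.33 (adjusted p = 0.739) in C646 and 0.18 (adjusted p = 0.883) in solvent over starved cells, none of them called. Of the other CLK1 transcripts tested, CLK1-207 (retained_intron, keeping intron 4) ranged from 2.67 to 8.66 CPM over the 12 libraries, CLK1-202 (nonsense_mediated_decay) from 0 to 15.4 CPM and CLK1-203 (protein_coding) from 0 to 9.43 CPM. CLK1-205 and CLK1-215 (protein_coding), CLK1-211 and CLK1-214 (retained_intron) and CLK1-213 (processed_transcript) stayed at or below 1.68 CPM.

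CLK4-203 is the retained_intron transcript of CLK4 that keeps introns 3 and 4, as CLK1-210 does in CLK1. It measured 1.49, 3.72 and 1.61 CPM in DMA cells, 2.39, 2.40 and 3.26 CPM in C646 cells, 2.68, 1.71 and 0.756 CPM in solvent cells, against 5.68, 7.60 and 5.58 CPM in starved cells. All 9 stimulated libraries again lay below all 3 starved libraries, a separation that was not counted over all transcripts. The differences were -1.46 (SE 0.53, adjusted p = 0.214) in DMA, -1.23 (SE 0.52, adjusted p = 0.356) in C646 and -1.87 (SE 0.53, adjusted p = 0.124) in solvent over starved cells, none called by edgeR. DESeq2 called the DMA (-1.48, adjusted p = 0.0467) and solvent (-1.89, adjusted p = 0.00609) values. No run of 31 bases in CLK4-203 is its own within the gene, so the division of reads limits this value more than that of CLK1-210.

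CLK4-201, the protein_coding transcript, averaged 7.51 ± 1.22 CPM in DMA, 8.16 ± 2.02 in C646, 8.18 ± 2.96 in solvent and 8.21 ± 1.39 CPM in starved cells (SD, n = 3), and the groups overlapped. CLK4-202 (retained_intron, keeping intron 4) lay below the starved range of 0.484 to 0.620 CPM in the C646 and solvent libraries, near the limit of detection; its solvent over starved difference was -2.04 (SE 0.78, adjusted p = 0.268). CLK4-214 (protein_coding) ranged from 0 to 3.86 CPM, CLK4-210 (nonsense_mediated_decay, lacking exon 4) from 0 to 1.80 CPM and CLK4-209 (nonsense_mediated_decay) from 0 to 1.52 CPM.

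CLK2 has no transcript annotated as retained_intron or nonsense_mediated_decay. Its protein_coding transcript CLK2-202 averaged 5.38 ± 2.05 CPM in DMA, 4.34 ± 3.82 in C646, 11.8 ± 7.06 in solvent and 12.9 ± 7.16 CPM in starved cells (SD, n = 3), and the groups overlapped. CLK2-205, a processed_transcript that lacks exon 4, averaged 12.8 ± 4.10, 14.2 ± 0.804, 13.6 ± 3.14 and 11.9 ± 5.73 CPM in the same order of groups. CLK2-207, a processed_transcript that keeps intron 4, averaged 8.14 ± 3.16, 9.46 ± 2.20, 10.3 ± 5.22 and 11.03 ± 3.69 CPM. Neither separated any groups. CLK2-201 and CLK2-203 (protein_coding) and CLK2-204 and CLK2-206 (processed_transcript) ranged from 0 to 5.32 CPM. CLK2-203 was listed at 0 in all solvent libraries.

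CLK3-201, the main protein_coding transcript of CLK3, measured 37.0, 31.9 and 14.9 CPM in DMA cells, 26.8, 23.5 and 13.9 CPM in C646 cells, 17.2, 21.2 and 16.9 CPM in solvent cells, against 27.1, 31.7 and 30.5 CPM in starved cells. The C646 and solvent libraries lay below the starved ones; the differences were -0.48 (adjusted p = 0.645) and -0.69 (SE 0.33, adjusted p = 0.388). CLK3-203, a retained_intron transcript that keeps intron 3, averaged 7.23 ± 1.93 CPM in DMA, 5.65 ± 2.74 in C646, 4.20 ± 2.52 in solvent and 7.70 ± 3.92 CPM in starved cells (SD, n = 3), and the groups overlapped. The protein_coding transcripts CLK3-202, CLK3-212, CLK3-217, CLK3-218 and CLK3-221 ranged from 0 to 1.961 CPM, and CLK3-217 was listed at 0 in all solvent libraries. The retained_intron transcripts CLK3-206, CLK3-208, CLK3-222 and CLK3-224 stayed at or below 2.36 CPM. So did the processed_transcripts CLK3-215 and CLK3-219. The nonsense_mediated_decay transcripts CLK3-216 and CLK3-225 reached at most 2.46 and 3.92 CPM. CLK3-225, which lacks exon 4, lay higher in all solvent than in all starved libraries (1.46, SE 0.83, adjusted p = 0.485). How many of all transcripts separate as CLK3-201 and CLK3-225 do was not counted.

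**Figure D2:**
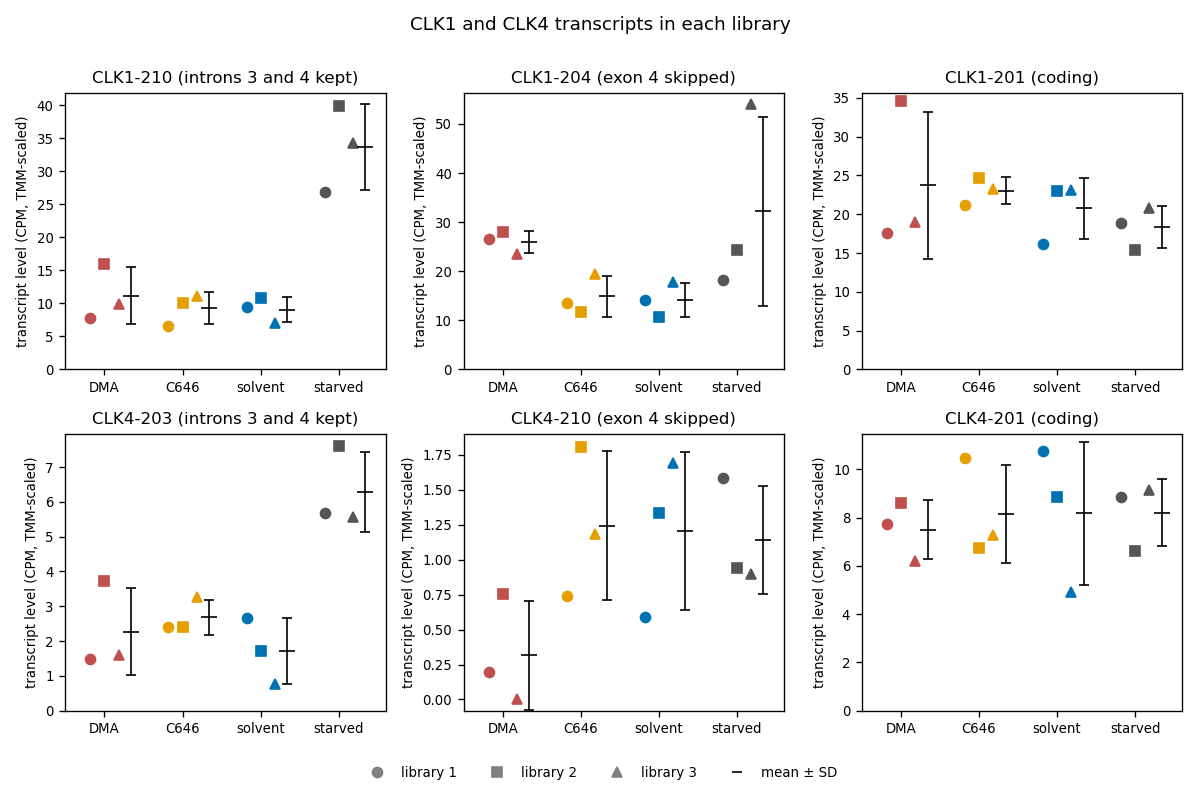
Level (CPM, TMM-scaled) of 6 CLK1 and CLK4 transcripts, chosen after their values were seen, in the 3 libraries of each group, with the mean and SD. CLK1-210 lies between 6.56 and 16.0 CPM in the 9 stimulated libraries and between 26.9 and 39.9 CPM in the starved ones. The share of all transcripts with such a separation was not counted. The calls of CLK1-210 ended with spike-in scaling, where it was still lower in stimulated cells. The differences of CLK1-204 in DMA over starved cells and of CLK4-201 in each comparison with starved cells turned positive with that scaling.

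Of the 39 CLK transcripts tested, CLK1-210 was the 1 called in DMA over starved cells, beside 2.31% of all transcripts, in C646 over starved cells, beside 1.81%, and in solvent over starved cells, beside 1.88%. With an unadjusted p under 0.05 there were 2, 4 and 6 of 39, beside 14.9%, 12.9% and 13.9% of all transcripts. The median difference of the 39 was -0.28, -0.46 and -0.11 in the same order, beside 0.00, 0.02 and -0.02 for all transcripts. Lack of overlap between libraries was read for the CLK transcripts only, and its share over all transcripts was not counted. Between the stimulated groups edgeR called 0 of 39 in DMA over solvent (0.00503% of all transcripts), in C646 over solvent (0.00335%) and in DMA over C646 cells (0.00671%). There were 2, 0 and 1 at an unadjusted p under 0.05, beside 9.07%, 6.89% and 6.23% of all transcripts, and DESeq2 called 0 in each.

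Within a gene, the ratio of retained_intron to protein_coding TPM does not depend on how the libraries are scaled. For CLK1 its log2 was -0.59, -0.82 and -0.61 in DMA libraries, -0.86, -1.35 and -0.90 in C646 libraries, -1.48, -0.75 and -1.27 in solvent libraries, against 0.20, 0.92 and 0.56 in starved libraries. Retained_intron transcripts as a class thus outweighed coding ones in every starved library and in no stimulated library. The class includes short transcripts of few counts, such as CLK1-214 (480 bases, at most 1.42 CPM), which ran from 1.51 to 5.32 TPM. In starved library 1 those keeping intron 3 or 4 held 13.4 TPM, below the coding class of any starved library (14.65 to 19.5 TPM). By limma over 5696 genes, with 0.1 TPM added to each class, the difference was -1.23 (SE 0.30, adjusted p = 0.166) in DMA, -1.60 (SE 0.30, adjusted p = 0.102) in C646 and -1.72 (SE 0.30, adjusted p = 0.0614) in solvent over starved cells, and none was called. With ratios formed from expected counts, all 3 were called, at -1.42 (adjusted p = 0.0401), -1.79 (adjusted p = 0.0153) and -1.75 (adjusted p = 0.0253). With 1 TPM added, C646 (-1.51, adjusted p = 0.0463) and solvent (-1.62, adjusted p = 0.0297) were called.

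For CLK4 the log2 ratio was -2.17, -2.10 and -1.59 in DMA libraries, -2.63, -2.33 and -1.76 in C646 libraries, -2.15, -2.31 and -3.36 in solvent libraries, against -1.08, -0.46 and -1.14 in starved libraries. Here too the stimulated libraries all lay below the starved ones. The share of all genes whose ratio separates in this way was not counted. The differences were -1.06 (SE 0.48, adjusted p = 0.420), -1.35 (SE 0.48, adjusted p = 0.428) and -1.72 (SE 0.48, adjusted p = 0.281) in DMA, C646 and solvent over starved cells, none called. CLK3 did not share the pattern: its values were 0.01, 0.26 (adjusted p = 0.886) and 0.39 (adjusted p = 0.753), with every solvent library above every starved one. Across the 12 libraries the log2 ratios of CLK1 and CLK4 had a Pearson r of 0.85, and those of CLK1 and CLK3 one of -0.23; the libraries fall into starved and stimulated ones, which this value reflects.

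**Figure D3:**
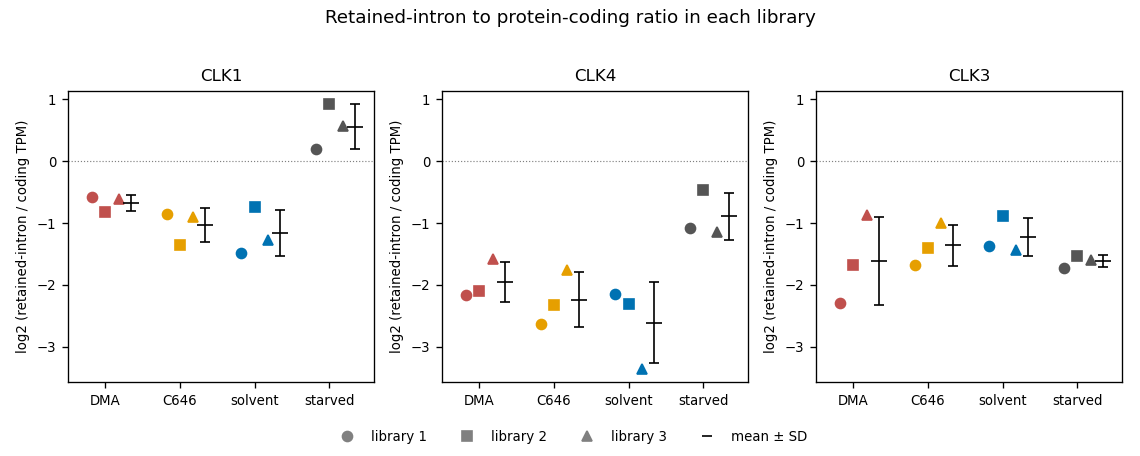
Log2 ratio of retained_intron to protein_coding TPM of CLK1, CLK4 and CLK3 in the 3 libraries of each group, with the mean and SD. For CLK1 the stimulated libraries lie between -1.48 and -0.59 and the starved ones between 0.20 and 0.92, the same order is seen for CLK4, and the CLK3 groups overlap except that the solvent libraries lie above the starved ones. The share of all genes with such a separation was not counted.

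None of the 3 CLK genes with both classes was called in any of the 6 comparisons of this ratio. The limma test called 0.158% of all genes in DMA over starved, 0.105% in C646 over starved and 0.123% in solvent over starved cells, where the median of all genes was -0.17, -0.11 and -0.21. With an unadjusted p under 0.05 there were 2 of 3 CLK genes in each, beside 11.8%, 9.01% and 10.7% of all genes. Between stimulated groups it called 0% of genes in DMA over solvent, 0% in C646 over solvent and 0.0176% in DMA over C646 cells. None of the 3 CLK genes had an unadjusted p under 0.05 there, beside 8.43%, 5.92% and 5.55% of all genes. The CLK1 ratio was higher in every DMA than in every C646 library (0.37, SE 0.30, adjusted p = 0.965), a separation that was not counted over all genes.

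The corresponding ratio for nonsense_mediated_decay transcripts was measured in 3 CLK genes among 4097. In solvent over starved cells it was -0.91 (SE 0.44, adjusted p = 0.560) for CLK1, 1.39 (SE 0.85, adjusted p = 0.629) for CLK3, higher in all solvent libraries, and 0.26 (SE 0.68, adjusted p = 0.946) for CLK4. In DMA over solvent cells CLK4 was lower in all DMA libraries (-1.44, SE 0.68, adjusted p = 0.544). The share of all genes whose ratio separates in these ways was not counted. The limma test called 0 of 3 in each comparison, beside 0.0244% of all genes in DMA over starved, in C646 over starved, in C646 over solvent and in DMA over C646 cells, and 0% in solvent over starved and DMA over solvent cells. CLK1 in C646 over starved cells (-1.07, SE 0.44) was the 1 value with an unadjusted p under 0.05, beside 8.10% of all genes in that comparison.

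Transcripts were then grouped by what they do at exon 4: splice it in, skip it, or keep intron 3 or 4. These groupings were made after the values were seen, and their levels are a description. In CLK1 the intron-keeping transcripts held 14.7, 16.1 and 12.6% of the TPM of the 3 structures in DMA libraries, 16.1, 13.0 and 15.6% in C646 libraries, 19.7, 14.9 and 10.9% in solvent libraries, against 30.5, 35.0 and 21.2% in starved libraries. In CLK4 the shares were 7.92, 12.1 and 11.2% in DMA, 12.1, 10.4 and 13.5% in C646 and 13.6, 9.98 and 5.43% in solvent libraries, against 24.4, 28.0 and 17.8% in starved libraries. For both genes every starved library stood above all 9 stimulated ones. How many of all genes separate in this way was not counted. In CLK2 and CLK3 the groups overlapped, with means of 20.5, 23.7, 19.0 and 21.8% for CLK2 and 13.5, 14.0, 12.1 and 13.9% for CLK3 in DMA, C646, solvent and starved cells.

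**Figure D4:**
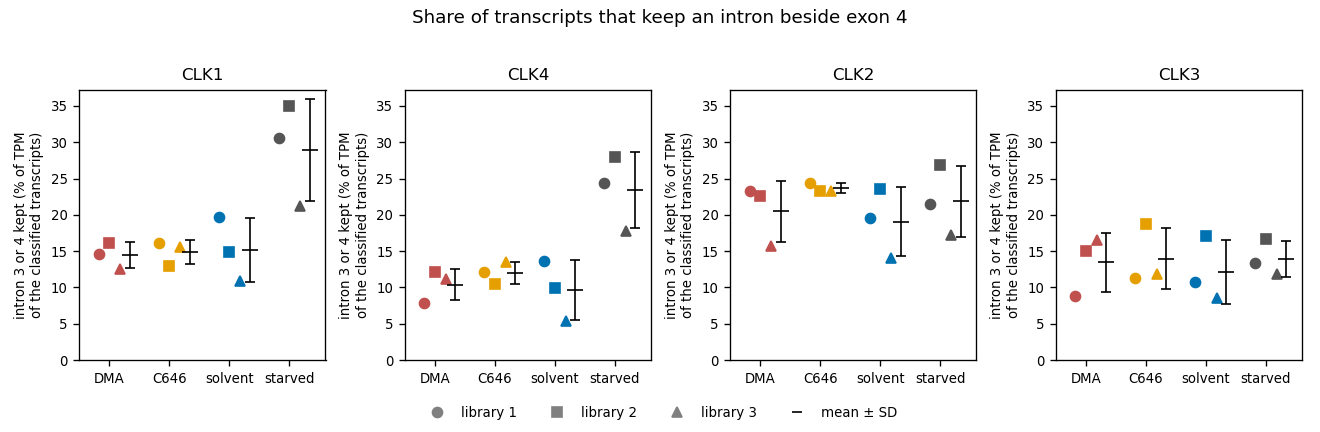
Share of TPM, in percent, held by transcripts that keep intron 3 or 4, among transcripts that splice exon 4 in, skip it or keep such an intron, in the 3 libraries of each group, with the mean and SD. CLK1 and CLK4 starved libraries lie between 17.8 and 35.0% and all their stimulated libraries at or below 19.7%, with no overlap within either gene, while the CLK2 and CLK3 groups overlap. The number of all genes that show no overlap was not counted.

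The level of the intron-keeping CLK1 transcripts averaged 6.83 TPM in DMA, 5.59 in C646, 5.35 in solvent and 16.3 TPM in starved cells, and that of CLK4 1.00, 1.14, 0.775 and 2.63 TPM. Skipping of exon 4, as a share of the skipping and including transcripts, averaged 54.6 ± 7.92% in DMA, 38.8 ± 10.9% in C646, 39.4 ± 14.4% in solvent and 60.3 ± 11.9% in starved cells for CLK1 (SD, n = 3). The DMA libraries overlapped with those of every other group, and the C646 and solvent libraries lay below the starved ones. For CLK3 the share was 17.6, 2.20 and 29.1% in DMA, 7.88, 12.4 and 28.9% in C646 and 25.0, 25.1 and 16.6% in solvent libraries, against 8.70, 7.69 and 3.30% in starved libraries. The solvent libraries all lay above the starved ones, and the DMA and C646 libraries overlapped with them. For CLK2 the means were 64.3% in DMA, 75.0% in C646, 54.6% in solvent and 48.9% in starved cells, and for CLK4 the share ran from 7.80 to 25.0% over the 12 libraries. In both genes the stimulated groups overlapped with the starved one. The share of all genes whose skipping separates as in CLK1 or CLK3 was not counted. Part of the sequence is shared with other genes: 2.05% of the 31-base runs of CLK1, 8.34% of CLK2, 8.37% of CLK3 and 4.56% of CLK4 also occur in another gene. For CLK2 all of these lie in its pseudogene CLK2P1. For CLK3 6.65% of exon bases overlap genes on the opposite strand, EDC3 among them. For CLK4 2.03% of exon bases overlap RN7SKP70 on the same strand, and CLK1 shares 40 runs with CLK4. The shared runs were counted on both strands. How far this sharing affects the counts of each of the 4 genes was not measured.

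**Figure D5:**
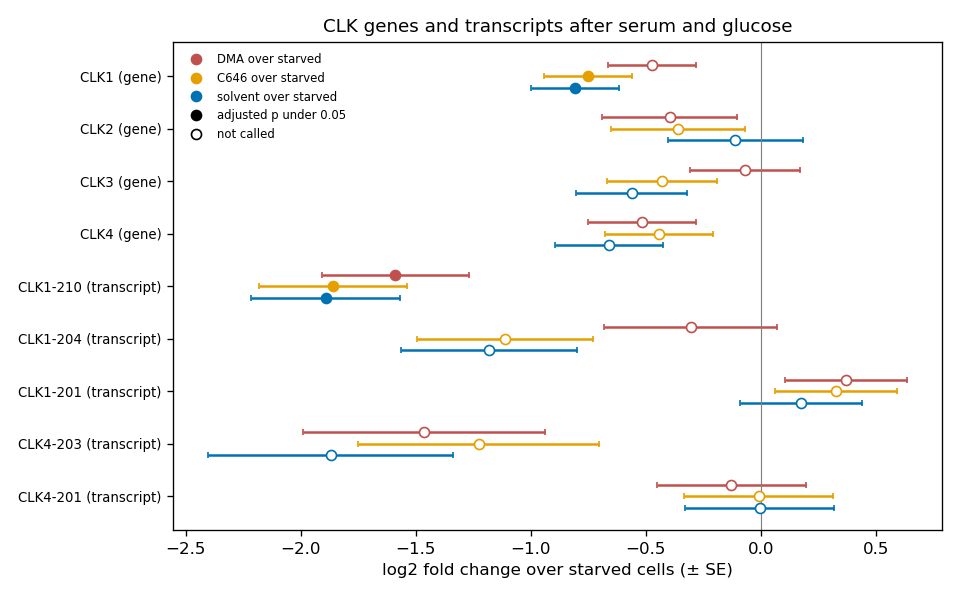
Log2 differences (TMM-scaled) of the CLK genes and of 5 CLK1 and CLK4 transcripts in DMA, C646 and solvent over starved cells, as points with the SE as bars; filled points passed an adjusted p of 0.05. The filled points are CLK1 in C646 and solvent over starved cells and CLK1-210 in all 3 comparisons with starved cells; none is called with spike-in scaling, where all gene differences from starved cells turned positive except CLK1 in C646 and solvent and CLK4 in solvent cells, as did CLK4-201 in all 3 comparisons and CLK1-204 in DMA over starved cells.

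Other kinases of SR proteins and related kinases, 12 of 13 of them tested, had members in both directions. Beside the counts of this list and the next 3 stand the shares of all genes called higher and lower: 13.9% and 13.0% in DMA, 12.9% and 11.7% in C646 and 12.6% and 11.7% in solvent over starved cells. With spike-in scaling these shares were 42.2% and 0.884%, 33.4% and 0.812%, and 21.1% and 1.24%. In solvent over starved cells 2 rose and 3 fell (median -0.27, all genes 0.00): DYRK2 (0.87, adjusted p = 0.000394) and HIPK2 (0.59, adjusted p = 0.0247), kinases of the same larger kinase group as the CLKs, were higher. DYRK1B (-1.33, adjusted p = 0.0134) and DYRK3 (-1.20, adjusted p = 0.000193), a kinase known to dissolve nuclear speckles and stress granules, were lower. With spike-in scaling 5 rose and 0 fell, and neither DYRK1B (-0.66, adjusted p = 0.234) nor DYRK3 (-0.57, adjusted p = 0.211) was called. In DMA over starved cells 4 rose and 1 fell, and in C646 over starved cells 3 rose and 2 fell; with spike-in scaling 5 and 4 rose and 0 fell, close to the shares of all genes. The medians were 0.12 and -0.11. None was called between stimulated groups. Single left-out libraries ended a fall in solvent over starved cells (adjusted p = 0.160 without starved library 2). They also ended a rise in DMA (adjusted p = 0.152 without DMA library 2) and a fall in C646 over starved cells (adjusted p = 0.0732 without C646 library 2). The HIPK2 call in solvent over starved cells ended without solvent library 2 or 3 or starved library 2 or 3 (adjusted p = 0.0726, 0.0515, 0.0741 and 0.0732), and that of DYRK1B without solvent library 1 (adjusted p = 0.0575) or starved library 2 (adjusted p = 0.0657).

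The SR proteins are the substrates of the CLKs. Of 13 tested with the TRA2 proteins, 6 rose and 0 fell in solvent over starved cells (median 0.30), led by SRSF7 (0.88, adjusted p = 0.00120) and SRSF1 (0.77, adjusted p = 0.000523). In DMA over starved cells 5 rose and 1 fell (median 0.28), and in C646 over starved cells 2 rose and 0 fell (median -0.11). The 2 rises in C646 cells, SRSF1 and SRSF9, ended without C646 library 1 (adjusted p = 0.116 and 0.167) or 3 (adjusted p = 0.0535 and 0.0662). A rise in DMA cells ended without DMA library 3 (adjusted p = 0.218), among other libraries. With spike-in scaling 8, 6 and 7 rose in DMA, C646 and solvent over starved cells and 0 fell. SRSF6 was lower in DMA cells, at 103 ± 16.6 CPM, against 177 ± 35.1 CPM in solvent cells (-0.78, adjusted p = 0.0244), and against 158 ± 8.93 CPM in C646 cells (-0.62, adjusted p = 0.0429; SD, n = 3), but with spike-in scaling neither was called (-0.54, adjusted p = 0.746, and -0.49). The SRSF6 call in DMA over solvent cells also ended without DMA library 2 (-0.89, adjusted p = 0.0756) or 3 (-0.82, adjusted p = 0.0535) or solvent library 1 (-0.73, adjusted p = 0.104) or 2 (-0.68, adjusted p = 0.0775). The one in DMA over C646 cells ended without any one of 10 libraries, all but solvent 2 and 3 (adjusted p from 0.0511 to 0.138).

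Among 6 genes of SR protein import and dephosphorylation, PPP1R10, a nuclear targeting subunit of protein phosphatase 1, rose in DMA cells to 127 ± 18.2 CPM, against 56.6 ± 6.68 CPM in solvent cells (1.17, adjusted p = 0.0190; 1.37, adjusted p = 0.0154 with spike-in scaling) and against 46.1 ± 13.8 CPM in C646 cells (1.46, adjusted p = 0.00379; SD, n = 3). The call against C646 cells held without any one library. That against solvent cells ended without DMA library 2 (1.16, adjusted p = 0.0925) or 3 (1.05, adjusted p = 0.0531) or solvent library 1 (1.07, adjusted p = 0.0888) or 2 (1.22, adjusted p = 0.0572). In solvent over starved cells 1 of 6 rose, PPP1R8 (0.40, adjusted p = 0.0200), and 0 fell. This call ended without solvent library 1 or 3 or starved library 1 or 2 (adjusted p = 0.0501, 0.0704, 0.0892 and 0.0828). Against starved cells 3 rose and 1 fell in DMA cells, and in C646 over starved cells 0 rose and 2 fell; with spike-in scaling 5 and 3 rose and 0 fell. The medians were 0.31 and 0.07. All 3 rises in DMA cells ended without DMA library 3 (adjusted p from 0.053 to 0.079). The fall of PPP1R10 in C646 cells ended without C646 library 1 or starved library 1 or 2 (adjusted p = 0.0534, 0.0667 and 0.0538).

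Of 18 factors of nonsense-mediated decay (NMD), the pathway that degrades transcripts with early stop codons, 5 rose and 2 fell in solvent over starved cells (median 0.19). EIF4A3 (0.66, adjusted p = 0.000339) and RBM8A (0.64, adjusted p = 0.000766), subunits of the exon junction complex, led those that rose. NBAS (-0.91, adjusted p = 0.000847) and SMG1 (-0.61, adjusted p = 0.00837), the kinase that phosphorylates UPF1, fell, but with spike-in scaling NBAS was not called (-0.34, adjusted p = 0.459) and SMG1 turned to 0.02. Set against starved cells 7 rose and 3 fell in DMA cells and in C646 over starved cells 5 rose and 1 fell; with spike-in scaling 12 and 7 rose and 0 fell, 7 of 18 being near the share of all genes. The medians were 0.15 and -0.01. Some of these calls ended with 1 library left out. Among them were a rise in solvent (adjusted p = 0.0663 without starved library 2) and a rise in DMA over starved cells (adjusted p = 0.134 without DMA library 1). A fall in DMA (adjusted p = 0.145) and a rise in C646 over starved cells (adjusted p = 0.118) ended without starved library 3. Between stimulated groups RNPS1 was the 1 call, higher in DMA than in C646 cells (0.48, adjusted p = 0.0212), and it was not called with spike-in scaling (0.57), nor without DMA library 1 or 3 or any one of the C646 libraries (adjusted p from 0.0517 to 0.0854).

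Over the 12 libraries, the genes whose log2 CPM was most like that of each CLK gene, among 10965 genes, were TOGARAM1 (Pearson r 0.949), SUMF2 (0.945) and COG3 (0.939) for CLK1, THTPA (0.941), ANOS1 (0.937) and WDR11 (0.930) for CLK2, LCTL (0.935), DLC1 (0.911) and BDNF (0.910) for CLK3, and THOC2 (0.926), ATF7IP (0.915) and JMJD1C (0.913) for CLK4. Within the family CLK1 and CLK4 were the most alike (r 0.81) and CLK1 and CLK2 the least (r 0.36). These values describe libraries that share groups and replicate numbers, and they carry no test.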

How the data were processed

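RNA-seq of RPE-1 cells was deposited as 1 table per library, with expected counts (estimated counts, not whole numbers) and TPM per transcript, both made by the authors and deposited without pooling. Per the submitters' processing notes, Trimmomatic 0.36, STAR 2.7.0e and GRCh38.p10 were used. The sources used here do not name the quantification program, the annotation or the strand setting. Transcripts were matched by identifier to GENCODE 29: 181808 of 182164 matched, 92 were spike-in sequences (0.527 to 1.28% of counts) and 264 matched nothing (0.0923 to 0.146%); both stayed out of library sizes and tests.

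Expected counts, per transcript or summed per gene, were rounded and tested with edgeR 4.0.16 in R 4.3.3 (filterByExpr with a minimum count of 10 and total of 15, TMM, glmQLFit and glmQLFTest, all 4 groups in 1 fit, no block, Benjamini-Hochberg over all features, threshold 0.05). Class ratios from TPM were tested with limma 3.58.1 on genes with a mean of at least 1 TPM of protein_coding and 0.1 TPM of class transcripts. Alternatives were DESeq2 1.42.0, other scalings, filters and pseudocounts, a replicate block, only the compared groups, and leaving out each library. Figures were drawn with matplotlib 3.10.9.

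Same-numbered libraries' deviations correlated at 0.128 to 0.483 in every pair of groups, except solvent and starved, where one value was 0.0957 (the limit was 0.1). The pairing comes from these data and from numbers in the labels, which state no shared day or culture. The 95% intervals of differences come from the edgeR fit and measure the spread between libraries, while the floor of 3 counts covers counting error only.

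The members and gene lists were chosen with earlier results of these data known. The genes named were the 4 CLK genes, each CLK transcript that passed the filter, up to 2 list members per direction with the largest called change, and the 3 genes most like each CLK gene (mean log2 CPM of at least 2). HIPK4 and SRSF12 did not pass the filter. Technical batches beyond the replicate number are not named in the labels.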

Additional observations from a re-analysis of the deposited data

How the results depend on the processing

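Of 1352 values under alternatives, 1223 stayed the same, 23 lost and 24 gained a call, 41 turned direction and 41 counts moved. Those that stayed were differences that kept direction and side of the threshold, and counts of called members that were equal or within a set factor. They were 269 differences and 114 counts, and with 1 library left out 575 differences and 265 counts. The CLK genes called in solvent over starved cells numbered 1, but 2 with DESeq2 (28.5% of all genes called), without a filter (11.8%) or with only the compared groups (23.3%), 3 with the replicate block (35.7%) and 0 with spike-in scaling (22.4%). For DMA over starved cells they were 0, but 3 with the block (38.7%), and for C646 over starved cells 1, but 3 with the block (36.2%) and 0 with spike-in scaling (34.2%). With 1 library left out the counts were 1 to 2 for solvent, 0 to 2 for DMA and 0 to 1 for C646 over starved cells. In DMA over starved cells CLK1 was then called without starved library 1 (-0.64, adjusted p = 0.0289) or DMA library 2 (-0.67, adjusted p = 0.0315), and CLK4 without DMA library 2 (-0.77, adjusted p = 0.0389). The block called CLK3 (-0.57, adjusted p = 0.0105) and CLK4 (-0.69, adjusted p = 0.0174) in solvent over starved cells, where numbers pair the libraries less clearly; it changed no other call of the reported genes, transcripts and ratios than those given here and beside the gene counts. Called transcripts numbered 1 in each comparison with starved cells, but 3 (solvent) and 2 (DMA) of 39 with DESeq2, which called 7.76% and 8.88% of all transcripts, 0 in each with spike-in scaling (3.19%, 1.27% and 0.540% of all transcripts in DMA, C646 and solvent over starved cells), and 0 to 1 with 1 library left out. The count of called retained-intron ratios was 0, but 1 with 1 TPM added (C646, solvent) or with expected counts (DMA, C646, solvent over starved).

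Spike-in scaling turned the direction of CLK2 (0.50) and CLK3 (0.055) in solvent over starved cells, of CLK1 (0.31), CLK2 (0.37), CLK3 (0.69) and CLK4 (0.28) in DMA over starved, of CLK2 (0.35), CLK3 (0.25) and CLK4 (0.25) in C646 over starved, and of CLK2 (0.023) and CLK4 (0.032) in DMA over C646 cells. It also turned CLK4-201 in DMA (0.65), C646 (0.62) and solvent over starved cells (0.48; 0.02 without a filter) and CLK1-204 in DMA over starved cells (0.39). This scaling moved the median of all genes to the values given with the libraries, and the move of a single gene need not equal that of the median. Leaving out 1 library turned values near 0, over ranges of -0.35 to 0.15 for CLK2 in solvent over starved, -0.12 to 0.31 for CLK4 in DMA over solvent, -0.025 to 0.19 for CLK1 and -0.002 to 0.37 for CLK4 in C646 over solvent cells. They were -0.25 to 0.18 for CLK2 and -0.33 to 0.10 for CLK4 in DMA over C646, and -0.25 to 0.12 for CLK3 in DMA over starved cells. Likewise CLK4-201 ran from -0.28 to 0.25 in solvent and -0.25 to 0.10 in C646 over starved cells. CLK1-201 ran from -0.019 to 0.53 and CLK1-204 from -0.61 to 0.28 in DMA over starved cells, the CLK3 retained-intron ratio from -0.37 to 0.35 in DMA over starved cells and the CLK4 NMD ratio from -0.005 to 0.48 in solvent over starved cells. The cause was not tested. With 3 libraries a group, transcripts of a few CPM carry wide errors.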
